A study of Mus musculus with 150 samples.

Results

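The genes described here are 6 that act late in the making of sperm: the transition proteins Tnp1 and Tnp2, the protamines Prm1 and Prm2, acrosin (Acr) and the A-kinase anchoring protein Akap4. They were chosen by name, as 6 of the 8251 genes that the array measured with a probe set of 1 gene symbol, and all probe sets annotated to them were taken. Tnp1 and Prm2 each had 2 probe sets and the other genes 1, which gave 8 of the 12422 probe sets that were not controls. Total RNA of wild-type inbred mice was hybridized to 150 one-colour Affymetrix arrays, per the labels. The 50 body arrays covered testes, adrenal, brown adipose tissue, heart, kidney, liver, muscle, spleen, thymus and white adipose tissue, each with 1 array of the strains 129, AJ, B6, C3H and DBA. The 100 neural arrays covered 24 brain regions and related tissues from mice of strain 129, B6 or DBA. A pair of neural arrays with identical values under different labels was left out, which left 148 arrays. No treatment or engineered allele is named in the labels, and the sources used here do not give the age of the mice, the substrain or the adipose depot. The titles of many neural arrays join several numbers, as for pooled mice, and some numbers recur across tissues, whereas the labels do not say what the numbers in the titles of body arrays stand for. The p-values therefore measure the spread between these arrays, which may be partly technical.

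During the last stage of sperm formation, the round spermatid lengthens and its nucleus is compacted. Histones are first replaced by the transition proteins, small basic proteins that are present only for a short time, and these give way to the arginine-rich protamines that package sperm DNA. The messages of Tnp1, Tnp2, Prm1 and Prm2 are made in round spermatids and stored before they are translated. Acrosin is the serine protease of the acrosome, the vesicle over the sperm head, and is first transcribed in spermatocytes. Akap4 is the main protein of the fibrous sheath around the sperm tail and tethers protein kinase A there.

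In the mouse genome Tnp2, Prm3, Prm2 and Prm1 are direct neighbours on chromosome 16, while Tnp1 is on chromosome 1, Acr on chromosome 15 and Akap4 on chromosome X. The 110 bases before the start of 5 of the genes are shown because Crem, an activator of spermatid genes, binds the cAMP response element. Whether Crem acts on these genes was not tested. The sequences are from RefSeq, build GRCm38.p6, written 5′ to 3′ on the strand of the gene. Capitals mark an 8-base match to the cAMP response element TGACGTCA with at most 1 mismatch, or the letters TATAA or, for the opposite strand, TTATA, searched on both strands in the 250 bases before each start.

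Tnp1, chr1:73015900-73016009, minus strand: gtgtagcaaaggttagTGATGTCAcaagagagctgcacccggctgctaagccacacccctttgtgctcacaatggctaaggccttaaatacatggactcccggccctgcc
Tnp2, chr16:10788656-10788765, minus strand: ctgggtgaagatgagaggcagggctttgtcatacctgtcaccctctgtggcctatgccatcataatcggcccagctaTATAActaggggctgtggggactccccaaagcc
Prm2, chr16:10792106-10792215, minus strand: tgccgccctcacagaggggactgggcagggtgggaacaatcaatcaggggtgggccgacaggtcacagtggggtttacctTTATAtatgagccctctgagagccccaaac
Prm1, chr16:10796824-10796933, minus strand: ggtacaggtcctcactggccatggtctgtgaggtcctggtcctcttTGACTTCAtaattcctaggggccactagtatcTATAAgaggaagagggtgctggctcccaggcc
Akap4, chrX:7067405-7067514, plus strand: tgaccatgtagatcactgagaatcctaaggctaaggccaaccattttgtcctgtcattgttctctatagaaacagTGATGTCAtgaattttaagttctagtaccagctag

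None of these windows held the exact element, and 3 held it with 1 mismatch. Tnp1 and Akap4 carried TGATGTCA, which differs by C4T, counted from 1 at the 5′ end of the element. In Tnp1 it lay 94 to 87 bases before the start, and in Akap4 35 to 28 bases before it. Prm1 carried TGACTTCA, which differs by G5T, 64 to 57 bases before the start. The letters TATAA lay 33 to 29 bases before the start of Tnp2 and 32 to 28 bases before that of Prm1, and TTATA lay 30 to 26 bases before that of Prm2. Of all 32851 RefSeq promoter windows of 250 bases, 1.55% held the exact element, 10.6% held it with at most 1 mismatch, and 22.8% held TATAA on either strand. The other listed Akap4 start, chrX:7068100-7068209, held neither. A match of letters is a description and not evidence that a factor binds there.

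Signal in testes was compared with signal in the other 33 tissues for each probe set, in the deposited unit, a linear intensity that can fall below 0. Before logarithms were taken, 10.44, the level that 20% of all values lie under, was set as a floor. The median of all values was 53.35, and a probe set was tested in a fit only if its mean passed this in at least 1 tissue. Levels are compared between arrays for a single probe set. Where probe sets are ranked, set side by side or held against a common level such as this median, the values describe signal and not amounts of message.

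The transition protein Tnp2 was read by 1 probe set, 101534_at. Its intensity in testes was 15367 in 129, 11112 in AJ, 9407 in B6, 10794 in C3H and 16105 in DBA, with a mean of 12557 ± 2983 (SD, n = 5). Over the 143 arrays of other tissues the lowest was -33.5, the median -4.43 and the highest 259. Testes and the other tissues did not overlap: the lowest testes array stood 36.3 times above the highest array elsewhere, and 128 of the 143 lay at the floor.

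Tnp1, the other transition protein, gave different pictures with its 2 probe sets. The probe set 160533_r_at read 5716 in 129, 5262 in AJ, 3835 in B6, 4590 in C3H and 7543 in DBA, a mean of 5389 ± 1398 (SD, n = 5). On the other 143 arrays it ranged from 212 through a median of 530 to 1488, so the lowest testes array was 2.58 times above the highest of the others, but every array outside testes lay above the median of all values. The probe set 161216_at read 35.3 in 129, -4.34 in AJ, 23.3 in B6, 2.72 in C3H and 36.3 in DBA. On the other arrays it ran from -15.2 to 13.4, and 138 of the 143 were at the floor. The signal of Tnp1 outside testes was thus read by one probe set and not by the other, and which of them reports the transcript there was not tested. The suffix _r_ marks a design for which Affymetrix dropped some of its probe selection rules.

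The protamine Prm1 was read by 99589_f_at, a type of probe set whose probes may match a family of similar sequences. In testes it read 14313 in 129, 11294 in AJ, 9316 in B6, 10784 in C3H and 16173 in DBA, a mean of 12376 ± 2795 (SD, n = 5). Elsewhere the lowest was -15.2, the median 5.38 and the highest 602. No array outside testes reached the testes range, the lowest testes array being 15.5 times above the highest of the others. However, 8 of the 45 body arrays outside testes lay above the median of all values, against 0 of 98 neural arrays.

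Prm2, the protamine that is made as a precursor and then trimmed, gave little signal with either probe set. The probe set 160528_at read 53.41 in 129, 37.0 in AJ, 33.2 in B6, 44.2 in C3H and 64.7 in DBA, a mean of 46.5 ± 12.7 (SD, n = 5). Elsewhere it ranged from -4.91 through 9.31 to 37.7, and 1 array, the highest pituitary array, of strain 129, overlapped the testes range. The probe set 161229_at read 4.07, 1.14, -2.07, 1.99 and -6.97 in the same order of strains, all at the floor. Its highest values lay outside testes, with 66.4 in B6 liver and 20.1 to 37.8 on the 4 pituitary arrays. Neither Prm2 probe set passed the filter, so these values describe the probe sets and give no estimate of how much Prm2 message testes hold.

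Acr was read by 93207_at at 2342 in 129, 1846 in AJ, 1265 in B6, 1987 in C3H and 1833 in DBA, a mean of 1855 ± 388 (SD, n = 5). The other tissues ranged from 16.9 through a median of 50.8 to 113, without overlap and 11.2 times below the lowest testes array at their highest. None of the 143 arrays was at the floor, and 63 of them passed the median of all values, 14 body and 49 neural. The acrosin probe set therefore had a low but non-zero reading in every tissue.

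Akap4 was read by 102857_at at 1375 in 129, 2057 in AJ, 1145 in B6, 2014 in C3H and 1988 in DBA, a mean of 1716 ± 425 (SD, n = 5). Elsewhere it ran from -10.9 through 3.00 to 21.3. The groups did not overlap, and no array outside testes passed the median of all values. How common such a lack of overlap is over all probe sets was not computed, so it is not read as particular to these genes.

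**Figure D1:**
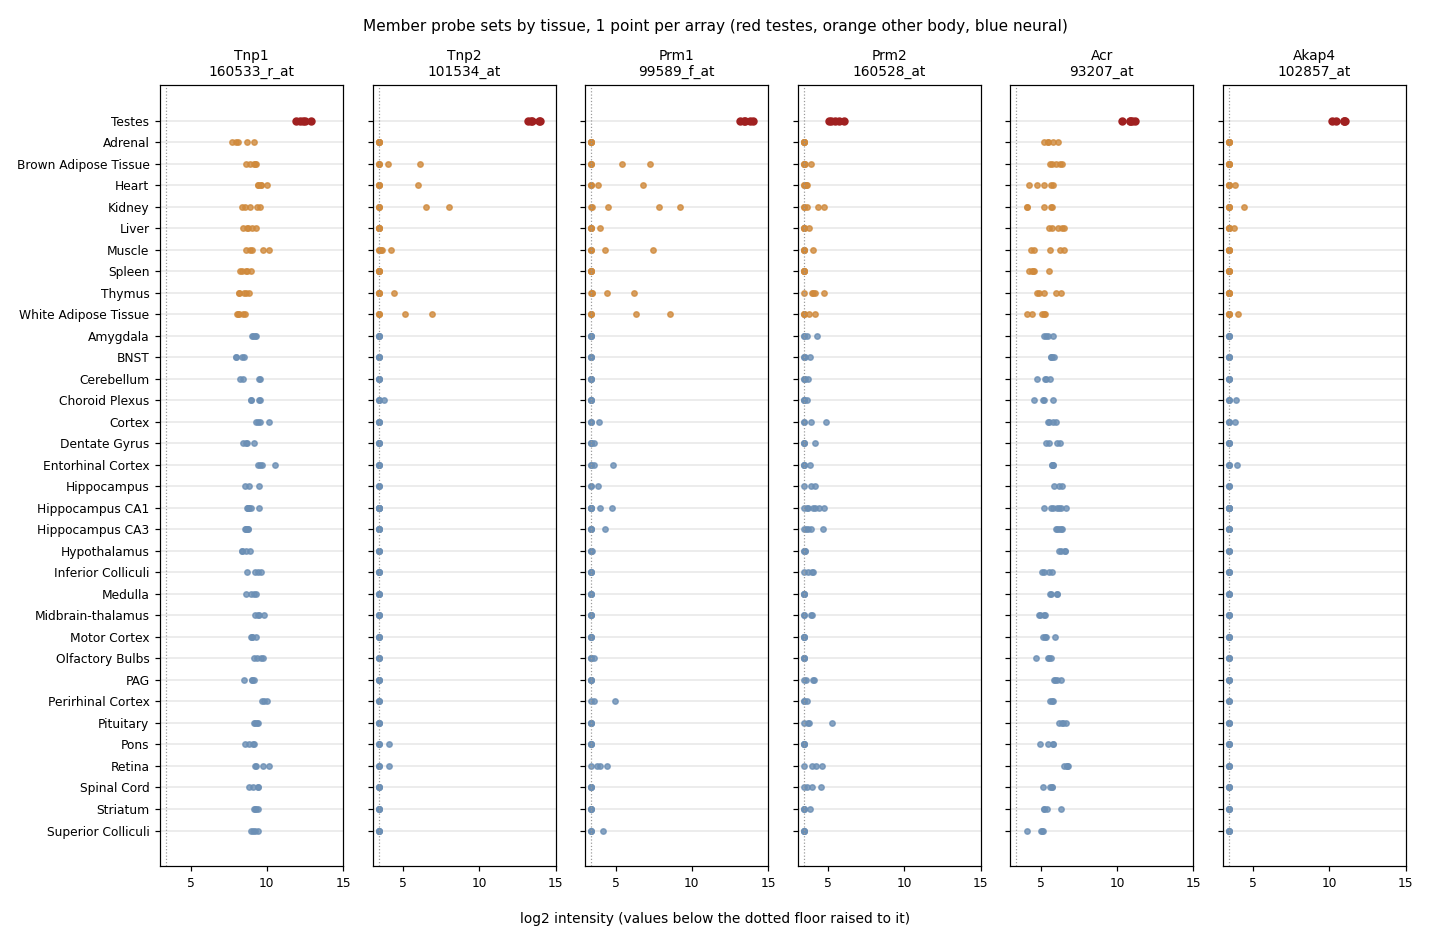
Log2 intensity of 6 probe sets of the 6 genes (x axis) on every array used, grouped by tissue (y axis), with 1 point per array; red points are testes, orange points other body tissues and blue points neural tissues, and the dotted line is the floor. Testes stand clear of all other tissues for Tnp1, Tnp2, Prm1, Acr and Akap4, the Tnp1 and Acr probe sets lie off the floor everywhere, and scattered body arrays rise off it for Tnp2 and Prm1.

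The fit across all probe sets put testes against the mean of the other 9 body tissues, with strain as a term. Of the 8 probe sets of the 6 genes, 5 could be tested and 5 were called higher, which required at least 1 on the log2 scale together with an adjusted p of 0.05, a call made for 1785 of 8917 probe sets, 20% of those tested. Tnp2, Prm1 and Akap4 passed the filter through testes alone, so this count says nothing beyond the values above. On the log2 scale with limma's Benjamini-Hochberg adjusted p, Tnp2 was higher by 9.73 ± 0.42 (SE, adjusted p = 5.51e-24), the largest difference of all 8917 probe sets. Prm1 followed in rank 2, higher by 9.31 ± 0.64 (limma adjusted p = 5.45e-17). Akap4 was higher by 7.27 ± 0.12 (limma adjusted p = 4.45e-39), in rank 33. Acr was higher by 5.48 ± 0.26 (limma adjusted p = 1.10e-22), in rank 107. Tnp1, by 160533_r_at, was higher by 3.54 ± 0.17 (limma adjusted p = 1.86e-22), in rank 311. The floor takes part in these sizes, as it does for other genes dim outside testes: Tnp2, Prm1 and Akap4 lay at it on most arrays elsewhere, and their differences moved to between 8.36 and 10.92, 8.09 and 10.18, and 5.67 and 8.38 over the alternatives. Without the filter, limma gave the Prm2 probe set 160528_at a difference of 1.91 ± 0.14 (adjusted p = 1.84e-15), which passed the threshold. Under the same setting limma gave the Tnp1 probe set 161216_at 0.94 ± 0.13 (adjusted p = 4.75e-08) and the Prm2 probe set 161229_at -0.41 ± 0.20 (adjusted p = 0.0748), neither past it.

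Other genes of the same stages were followed by lists of markers, each gene through the probe set whose floored log2 values had the highest mean over the 148 arrays, with differences given as log2 ± SE and called by the same fit and threshold. That choice can favour a probe set that reads signal in many tissues over a brighter one in testes. Over all 8917 probe sets the median difference was -0.22 and 25.1% were lower in testes. A gene that passed the filter through testes alone had to come out higher, so such genes are counted apart. The share that rose among all probe sets passing in another body tissue was not computed, so none stands beside the counts below. The 20% over all 8917 includes probe sets that passed through testes alone. Of 21 listed genes for spermatid chromatin and late transcription, 12 were on the array and 11 were tested, of which 6 rose, 0 fell and the median was 2.49. Of the 9 that passed the filter in another body tissue too, 4 rose. Meig1, needed for spermiogenesis, lay at the floor on all 45 other body arrays, so its difference of 7.99 is measured against the floor. The RNA-binding protein Ybx2 was higher by 6.06 ± 0.26, the testis poly(A) polymerase Papolb by 5.55 ± 0.33 and the protamine neighbour Prm3 by 4.49 ± 0.27. The listed genes that did not pass included Crem, the spermatid activator of this program, at 0.25 ± 0.19, and the testis histones H1f6 at 0.54 ± 0.18 and H2bc1 at 0.46 ± 0.24. For Prm3 the list used 162056_f_at, at 530 to 1004 in testes, where its other probe set, 93242_at, read 2866 to 4766.

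All 10 tested genes of the acrosome list rose, with a median of 5.93, though 6 of them passed the filter through testes alone, and the other 4 of 4 rose. Tcp11 was higher by 7.39 ± 0.31, the zona-binding protein Zp3r by 7.14 ± 0.11, the sperm surface protein Sp17, named Spa17 in the annotation, by 7.14 ± 0.23 and the fertilin subunit Adam2 by 6.76 ± 0.17. Of 9 tested genes for the flagellum 8 rose, with a median of 4.65, and of the 4 that passed the filter elsewhere too 3 rose. Among the risers were the mitochondrial capsule protein Smcp by 8.14 ± 0.39, Oaz3 by 7.78 ± 0.35, the outer dense fibre protein Odf1 by 7.70 ± 0.42 and the tektin Tekt2 by 6.73 ± 0.15. Of 15 tested genes for the metabolism and kinases of sperm 13 rose, with a median of 6.29, and of the 6 that passed elsewhere too 4 rose. The sperm lactate dehydrogenase Ldhc was higher by 9.00 ± 0.36, the actin-like Actl7b by 8.17 ± 0.20, the kinase Tssk2 by 7.45 ± 0.24 and the sperm glyceraldehyde-phosphate dehydrogenase Gapdhs by 7.42 ± 0.32.

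Earlier germ cells and the somatic cells of the testis were also read. All 6 tested spermatocyte genes rose, with a median of 5.85, but 3 of them passed the filter through testes alone. The listed spermatocyte genes Sycp3, Dmc1, Msh5 and Mybl1 were on the array but did not pass the filter. The risers were led by the chaperone Hspa2 at 7.36 ± 0.18, the cohesin subunit Stag3 at 6.47, measured against the floor on all 45 other body arrays, the cyclin Ccna1 at 6.13 ± 0.18 and the synaptonemal protein Sycp1 at 5.57 ± 0.15. Of 7 tested spermatogonial genes 5 rose and 1 fell, with a median of 1.60, the germ cell helicase Ddx4 rising by 7.42 ± 0.12 and Zbtb16 falling by 2.28, while Gfra1 stood at -0.96 and Stra8, at 10.8 to 42.3 in testes, was not tested. Of 12 tested Sertoli cell genes 9 rose, with a median of 2.34, led by Aard at 6.37 ± 0.17 and inhibin alpha, Inha, at 5.05 ± 0.16. Of 8 tested Leydig cell genes 6 rose, with a median of 1.44, led by the steroidogenic enzymes Cyp17a1 at 6.48 ± 0.33 and Cyp11a1 at 3.89 ± 0.19. A rise is against the mean of 9 tissues, and arrays outside testes can read more. Cyp11a1 read 220 to 606 in testes and up to 4194 elsewhere, Star 108 to 167 and up to 4233, and Hsd3b1 115 to 230 and up to 4431. Hsd3b6 read 111 to 258 and up to 641, and Hsd17b3 43.24 to 74.15 and up to 71.68. Of the 6, only Cyp17a1 stood clear, with at least 1453 in testes and at most 412 elsewhere. None of 3 tested genes of the epididymis list passed the threshold, with a median of 0.37 and Adam28 the furthest from 0 at 0.56 ± 0.14. Of the genes that passed the filter elsewhere too, 2 of 4 spermatogonial, 5 of 8 Sertoli and 5 of 7 Leydig genes rose. Defining genes at low intensity in testes included Sycp3 of spermatocytes, at -3.16 to 1.80, Amh of immature Sertoli cells, at -1.19 to 15.8, and Insl3 of Leydig cells, at 11.7 to 38.2. Arrays elsewhere also read more of Clu and Cldn11 of the Sertoli list, at up to 8803 and 1314 against at most 3208 and 306 in testes. The same held for Uchl1 of the spermatogonial list, at up to 3876 against at most 425. Genes of germ, Sertoli and Leydig cells were thus among those higher in the labelled testes than in the mean of the other body tissues. Not all of their defining genes were read there.

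**Figure D2:**
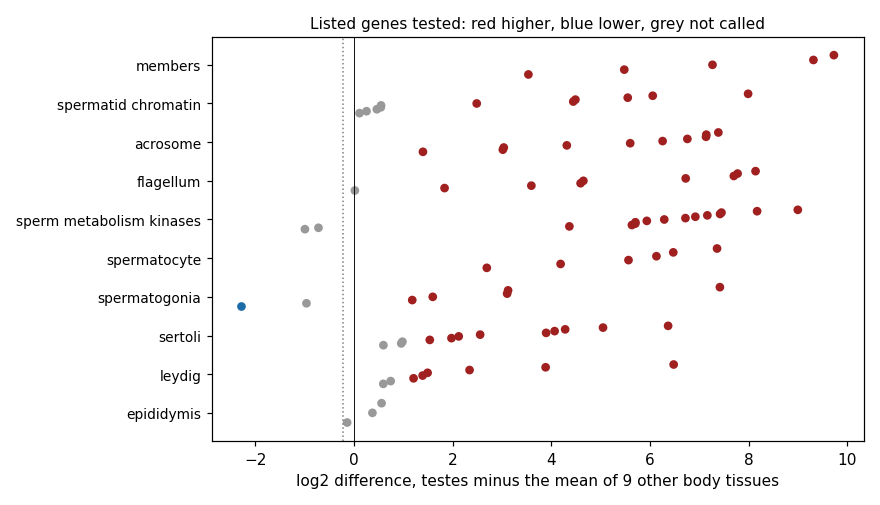
Log2 difference between testes and the mean of the other 9 body tissues (x axis) for every tested gene of each list (y axis), 1 point per gene; red points were called higher and blue lower in the fit, grey points were not called, and the dotted line is the median of all probe sets, -0.22. The acrosome, metabolism and spermatocyte lists have medians between 5.85 and 6.29, the Leydig list one of 1.44 and the epididymis list one of 0.37. These medians include genes that passed the filter through testes alone and had to come out higher. They were 6 of 10 acrosome, 9 of 15 metabolism, 3 of 6 spermatocyte, 1 of 8 Leydig and 0 of 3 epididymis genes, so the medians do not rank the lists.

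Genes whose pattern was most like that of each of the 6, apart from Prm2 with its dim probe sets, were named by the Pearson correlation of log2 means over the 34 tissues, which rests mainly on testes standing apart. Ldhc (r = 0.997), Crisp2 (r = 0.994) and Gapdhs (r = 0.988) were most like Tnp2. Ldhc and Oaz3 (r = 0.985 each) and Smcp (r = 0.980) were most like Prm1. Phf7, Gml and Rnf20 (r = 0.999 each) were most like Akap4, which had 72 of 8245 genes above 0.95. For Acr, Nkx2-6 came closest with r = 0.947, followed by Papolb (r = 0.944) and Pabpc2 (r = 0.930). For Tnp1, Bag6 (r = 0.897), Cox8c (r = 0.886) and Nr6a1 (r = 0.877) came closest. No gene passed 0.95 for Acr or Tnp1, whose probe sets lay above the floor on every array, against 68 for Tnp2 and 44 for Prm1.

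The 5 strains were compared within testes by each array's deviation from the mean of the 5, on the log2 scale. There was 1 array per strain, so no difference between strains could be tested, and strain cannot be told apart from the array, the RNA sample or a batch. The titles of the 129 and B6 testes arrays contain the number 2000, described below, and those of the other strains do not. In whole tissue fewer spermatids and less RNA per spermatid cannot be told apart either. The B6 array was the lowest for Tnp1, Tnp2, Prm1, Acr and Akap4, which was also so for 40.4% of the 1785 probe sets called higher in testes. The deviation of B6 was -0.45 for Tnp1, -0.38 for Tnp2, -0.38 for Prm1, -0.52 for Acr and -0.54 for Akap4, beside a median of -0.15 over the 1785. The highest array was DBA for Tnp1, Tnp2 and Prm1, at 0.52, 0.39 and 0.41, beside a median of 0.07. DBA was also the highest for 28.6% of the 1785. For Acr the highest was 129, at 0.36, and for Akap4 it was AJ, at 0.30. The order of strains for the chromatin genes was thus shared among Tnp1, Tnp2 and Prm1 at both ends, while 129 was above the mean for these 3 and for Acr but at -0.28 for Akap4.

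The spread between strains was smaller than the gap to other tissues for each of these probe sets. The highest testes array exceeded the lowest 1.97-fold for Tnp1, 1.71-fold for Tnp2, 1.74-fold for Prm1, 1.85-fold for Acr and 1.80-fold for Akap4. The SD over the 5 arrays had a median of 0.34 for these probe sets and of 0.26 over the 1785. The listed genes that rose in testes had B6 medians of -0.24 for spermatid chromatin, -0.33 for the acrosome, -0.48 for the flagellum, -0.35 for metabolism and kinases and -0.21 for spermatocytes. The B6 medians of spermatogonial, Sertoli and Leydig genes were 0.18, 0.19 and 0.12. Over all listed genes on the array, called or not, the B6 median was -0.06 for spermatid chromatin, where C3H was at -0.08, and -0.06 for Leydig genes. It was -0.33 for the acrosome, -0.41 for the flagellum, -0.31 for metabolism and kinases, -0.21 for spermatocytes and 0.10 for Sertoli cells. Over all 8917 probe sets the B6 median was 0.02. With 75th percentile scaling B6 stayed the lowest array for the 5 probe sets, and DBA the highest for Tnp1, Tnp2 and Prm1. The deviation of B6 was then -0.42 for Tnp2, -0.41 for Prm1, -0.49 for Tnp1, -0.56 for Acr and -0.58 for Akap4. After quantile normalization, which gives all arrays 1 distribution, the deviation of B6 shrank to -0.04 for Tnp2, -0.16 for Prm1 and -0.14 for Tnp1 and stood at -0.38 for Acr and -0.41 for Akap4. Tnp2 then had the same value on 4 of the 5 arrays and DBA was no longer its highest array. B6 was no longer alone at the low end for Tnp1, tied with C3H at -0.14, or for Prm1, tied with 129 at -0.16. At the high end for Prm1, DBA was tied with AJ at 0.18. Tnp2 and Prm1 ranked between 1 and 3 among all probe sets on every testes array, and quantile normalization gives equal ranks the same value. It therefore cannot decide the order of strains for Tnp2 and Prm1.

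**Figure D3:**
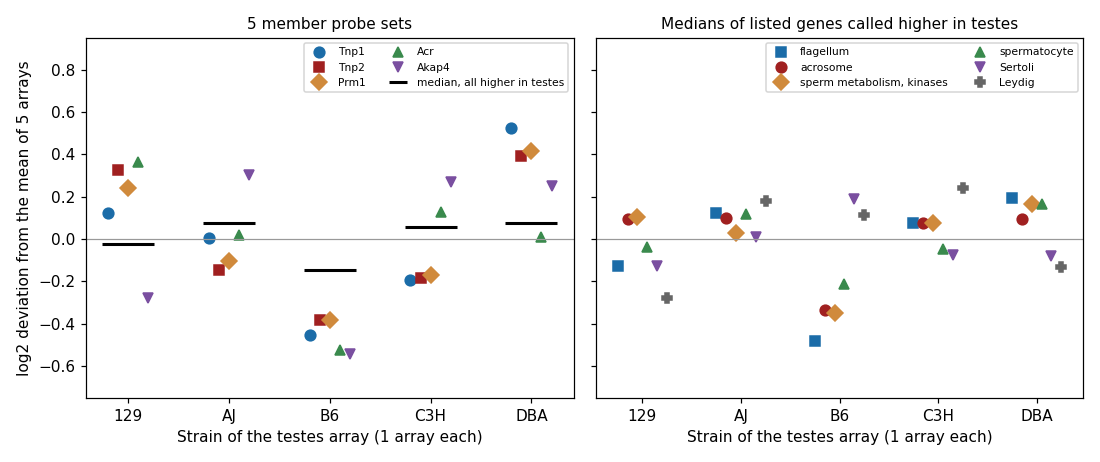
Log2 deviation from the mean of the 5 testes arrays (y axis) by strain (x axis, 1 array each), offset sideways for legibility; the left panel shows 5 probe sets of the genes described, with black bars for the median of the 1785 probe sets called higher in testes, and the right panel the medians of the listed genes called higher. On the B6 array the 5 probe sets lie between -0.38 and -0.54, beside a median of -0.15, and the Sertoli and Leydig medians lie above 0.

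Signal elsewhere was first sought by setting each body tissue other than testes against the mean of the other 8. The Tnp1 probe set 160533_r_at and Acr were the only ones of the 8 to pass the filter there, and limma called 0 pairs of these probe sets and a tissue higher, where 12.3% of all pairs of probe set and tissue were. Of their 18 pairs, 4 were higher at an unadjusted p of 0.05, each by less than the required 1. Tnp1 was highest in heart, at 794 ± 131 (SD, n = 5), a difference of 0.90 ± 0.17 (limma adjusted p = 3.61e-05). It was lowest among body tissues in white adipose tissue, at 310 ± 53.9 (SD, n = 5). Acr was highest in liver, at 70.0 ± 20.0 (SD, n = 5), with a difference of 0.82 ± 0.26 (limma adjusted p = 0.00573), and lowest in spleen, at 26.4 ± 11.1 (SD, n = 5), with -0.80 ± 0.26 (limma adjusted p = 0.00650). Without the arrays of strain 129, Acr in liver reached 1.01 ± 0.26 (limma adjusted p = 0.00117) and was called, as 12.9% of probe sets in liver were with all strains.

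Among the 24 neural tissues, the same test called 1 pair higher, Acr in retina, where 3.99% of all pairs and 14.5% of probe sets in retina were called. Acr on the 4 retina arrays, all of strain B6, ran from 91.8 through a median of 106 to 113, a difference of 1.06 ± 0.17 (limma adjusted p = 5.60e-08). Pituitary, at 87.1 ± 11.3 (SD, n = 4), and hypothalamus, at 86.6 ± 11.7 (SD, n = 4), came next and did not differ from each other beyond their spread. After quantile normalization the retina difference was 0.90 (limma adjusted p = 6.92e-07) and was not called. These intensities lay far below those of Acr in testes, where the lowest array read 1265.

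Tnp1 by 160533_r_at was highest outside testes in entorhinal cortex, at 943 ± 368 (SD, n = 4), where a DBA array held the maximum of 1488. Perirhinal cortex at 929 ± 122 (SD, n = 3), retina at 799 ± 239 (SD, n = 4), cortex at 798 ± 216 (SD, n = 4) and heart followed, and neighbours in this order lay within their spread. The perirhinal difference was 0.70 ± 0.18 (limma adjusted p = 0.00163), under the required 1. The bed nucleus of the stria terminalis, BNST in the labels, was the lowest of all tissues at 301 ± 58.5 (SD, n = 4). Its difference of -0.95 ± 0.15 (limma adjusted p = 6.77e-07) was close to the threshold without reaching it. The other Tnp1 probe set lay at the floor on 94 of the 98 neural arrays.

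Tnp2, Prm1 and Akap4 were too dim outside testes to be tested there and are given by their values. Prm1 was above the median of all values on 8 body arrays, each a single array of its tissue and strain. In kidney it read 602 in 129 and 229 in B6, against 10.9 in AJ, 22.8 in C3H and 9.21 in DBA. In white adipose tissue it read 386 in B6 and 81.8 in C3H, against 9.66 in 129, 0.63 in AJ and 7.25 in DBA. The other readings were 172 in DBA muscle, 152 in 129 brown adipose tissue, 111 in 129 heart and 75.2 in 129 thymus. The signal was thus split within tissues by array rather than shared by the 5 arrays of a tissue.

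Tnp2 passed the median on 5 of these 8 arrays and on no other. It read 259 in 129 kidney, 120 in B6 white adipose tissue, 88.8 in B6 kidney, 69.3 in 129 brown adipose tissue and 63.7 in 129 heart. On C3H white adipose tissue it read 34.1 and on 129 thymus 20.7, both above the highest of the other 37 body arrays, 18.4. The exception was DBA muscle, where Tnp2 read -4.28 beside a Prm1 of 172. As a share of the testes array of the same strain, Prm1 stood at 4.21% in 129 kidney, 4.14% in B6 white adipose tissue and 2.46% in B6 kidney, and Tnp2 at 1.69%, 1.27% and 0.944% there. Akap4 reached 21.3 in 129 kidney, its highest value outside testes, and Acr was 52.2 there, under the median of all values.

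Other sperm genes were read on the same arrays, using 9 listed genes at 2000 or more on every testes array with a median of at most 20 elsewhere, a choice made after the values were seen. Any probe set of a listed gene could qualify here, so Prm3, Crisp2, Gapdhs and Dnajb3 were read by other probe sets than in the lists above. In 129 kidney 3 of the 9 passed the median of all values, Ldhc at 133, Oaz3 at 122 and Crisp2 at 68.3. In B6 white adipose tissue 4 passed, Smcp at 219, Oaz3 at 112, Ldhc at 96.9 and Crisp2 at 81.6. Crisp2 passed by its probe set 92825_at, whereas 162454_f_at, used in the lists, read 180 to 243 in testes and at most 50.3 on the other body arrays. In C3H white adipose tissue Smcp read 182 and Oaz3 80.6, while Ldhc read 0.13. B6 kidney had Ldhc at 80.0, and 129 brown adipose tissue and 129 heart had Oaz3 at 68.6 and 56.5. On DBA muscle, 129 thymus, the other 37 body arrays and the 98 neural arrays, 0 of the 9 passed. Sperm genes other than the 6 thus accompanied Prm1 on 6 of the 8 arrays.

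Markers of the epididymis, which stores sperm and lies within a fat pad, were also read. In white adipose tissue the epididymal lipocalin Lcn5 read 6.04 in 129, 4.32 in AJ, 108 in B6, 3941 in C3H and 12.5 in DBA, while the 40 body arrays of tissues other than testes and white adipose tissue stayed at or below 25.2 and testes at or below 28.3. Adam7, another epididymal gene, read 17.3, 14.0, 2276, 1953 and 182 in that order, with the same 40 arrays at or below 51.4 and testes at or below 70.3. Gpx5 read 327 in C3H and at most 51.3 elsewhere in the body, and Ros1 stayed at or below 25.4 on every body array. The white adipose arrays of B6 and C3H thus carried both the highest epididymal readings and Prm1 signal, while DBA had Adam7 at 182 and Prm1 at 7.25. Of the 5 epididymal genes on the array, Adam28 was above the median on every array examined, and it was the only such gene on the kidney, heart, brown adipose, thymus and muscle arrays with Prm1 signal. The part of these cells in the Prm1 signal was not tested.

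The titles in the labels carry numbers, and those of some 129 and B6 arrays, their testes arrays among them, contain 2000, a number whose meaning is not given in the sources used here. In strain 129, 4 of the 4 other body arrays with that number had Prm1 above the median, against 0 of 5 without it, where the highest was 9.66. In strain B6 it was 1 of 6 with the number and 1 of 3 without. No AJ, C3H or DBA array carried it, and the counts were 0 of 9, 1 of 9 and 1 of 9. Its part in the Prm1 signal was not tested. Without the 8 arrays, testes exceeded the other body tissues for the same 5 probe sets. These arrays were picked by their Prm1 reading, so the wider Prm1 difference, 9.99 against 9.31, was fixed by that choice. Again 0 pairs of probe set and other body tissue were called, which covers Tnp1 and Acr, since Prm1 and Tnp2 did not pass the filter there.

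**Figure D4:**
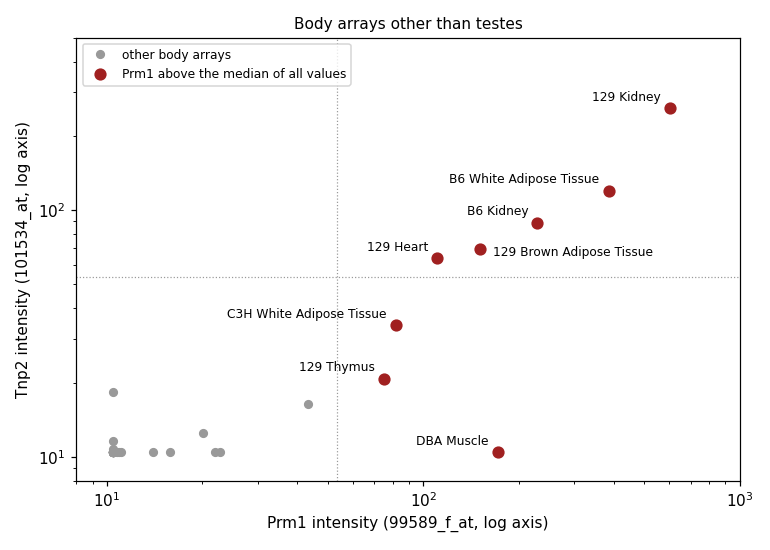
Intensity of Tnp2 (y axis, log) against Prm1 (x axis, log) on the 45 body arrays outside testes, 1 point per array, with values below the floor drawn at it; red points, labelled by strain and tissue, have Prm1 above the median of all values, which the dotted lines mark at 53.35. The 129 kidney array lies highest at 602 and 259, and DBA muscle is the red point at the Tnp2 floor.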

How the data were processed

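Total RNA was made into biotin-labelled target and hybridized to 1 array per sample, per the labels' protocols. Each deposited value is a linear intensity of 1 probe set, and 5.97% of them are below 0. How the authors computed, background-corrected and scaled it is not given in the sources used here. Over 150 arrays, 75th percentiles lay between 167 and 185, so the authors' values were at a common level and were not scaled further. The columns labelled 129 hippocampus replicate 1 and DBA perirhinal cortex replicate 2 were identical and were both left out, leaving 148 arrays, 98 of them neural.

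Of 12488 probe sets 66 were controls. Of the rest 10833 carried 1 symbol in the platform annotation, 396 several and 1193 none. Values were raised to the 20th percentile, 10.44, and expressed as log2. Testing required a tissue mean, adjusted for strain, above 5.74, the overall median on the log2 scale, in 1 or more tissues of a fit. Models were fitted in limma 3.58.1 (R 4.3.3) with strain as a term and a prior variance that follows the mean. P-values were Benjamini-Hochberg adjusted over all probe sets of a contrast, and a call needed a log2 difference of at least 1 besides an adjusted p of 0.05. Strain pairs arrays of different tissues, since the labels give it, and is the block in these fits. The fits were tested on simulated data. The number of arrays limits the precision.

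The genes and lists were chosen with earlier results of these data known. Genes were named by rule: all probe sets of the 6 genes, up to 4 called genes per list with the largest difference, the 3 genes most like each of the 6, apart from Prm2, over the 34 tissue means, and each array outside testes where one of the 6 passed the median. Promoter sequences came from RefSeq, build GRCm38.p6, matched by symbol for Tnp1, Tnp2, Prm1, Prm2 and Akap4. The alternatives varied the floor, scaling, filter, strain term, prior variance, probe set choice and arrays used.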

Additional observations from a re-analysis of the deposited data

Results flagged for a closer look

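Of 160 groups of 4 to 10 arrays checked for the 5 brighter probe sets, 14 held an array standing apart from the rest by Dixon's criterion, where chance gives about 8. Explanations were not tested.

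The body arrays among them included 5 of high signal that the report describes. Prm1 read 386 on the B6 array of white adipose tissue, against 0.63 to 81.8 on the others, and 172 on the DBA array of muscle, against 2.08 to 20.0. In heart the 129 array read 111 for Prm1, against 0 to 14.0, and 63.7 for Tnp2, against -15.3 to 5.22. The 129 kidney array read 21.3 for Akap4, against 0.72 to 4.84.

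Of lower readings, Prm1 read 15.8 on the B6 array of liver, against 3.41 to 6.05, and -2.37 on the C3H array of spleen, against 3.84 to 6.19. Acr read 45.9 on the 129 array of spleen, against 18.6 to 23.0.

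In neural tissues, the Tnp1 probe set 160533_r_at read 714 on a DBA array of hippocampal CA1, against 421 to 506 on the other arrays. Acr read 80.4 on a B6 array of striatum, against 36.4 to 43.3, and 17.1 on a B6 array of superior colliculi, against 32.7 to 34.7. Prm1 read 11.8 on a B6 array of dentate gyrus, against 1.21 to 2.29. Tnp2 read 3.62 on a B6 array of striatum, against -12.9 to -11.4, and -8.36 on a B6 array of motor cortex, against -3.43 to -2.97, all of these under the floor used for logarithms.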

How the results depend on the processing

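The 5 differences between testes and the other body tissues kept their direction and call under all 15 alternatives: log2 differences ran from 8.36 to 10.92 for Tnp2, 8.09 to 10.18 for Prm1, 5.67 to 8.38 for Akap4, 5.23 to 5.70 for Acr and 3.32 to 3.61 for Tnp1, and the highest limma adjusted p was 1.02e-14. For Tnp2, Prm1 and Akap4 the floor takes part in the p-values as well as the sizes. Counts of probe sets higher in testes ran from 1376 with 1 probe set per gene to 1916 without the filter, against 1785. Leaving out 1 testes array in turn gave 1775 to 1834 higher and 2182 to 2320 lower. Without the strain term, and so without the replicate block, 1784 were higher and 2232 lower, the pair counts were 0 and 1, and no call on the genes described changed. The few calls outside testes were less steady. The count of pairs in other body tissues, 0, became 1 with the floor at the 40th percentile (Prm1 in kidney, 1.08 ± 0.43, limma adjusted p = 0.0305), 1 with quantile normalization (Prm1 in kidney, 1.71 ± 0.65, limma adjusted p = 0.0241) and 1 without the filter (Tnp2 in kidney, 1.21 ± 0.45, limma adjusted p = 0.0280). Leaving out 1 strain in turn gave 0 to 1: Acr in liver without 129, Prm1 in kidney without AJ, C3H or DBA (2.01, 1.89 and 2.14), and 0 without B6. The count of neural pairs, 1, became 0 with quantile normalization and 2 without the filter, which added the Prm2 probe set 161229_at in pituitary at 1.36 ± 0.15 (limma adjusted p = 4.96e-13). The causes were not tested. Prm1, Tnp2 and the Prm2 probe set did not pass the filter outside testes under the main settings, so their pairs were not tested there. The highest Prm1 mean of these body tissues was that of kidney, 5.68 on the log2 scale, just under the filter. Settings that let Prm1 in thus did so with kidney as its highest tissue, and its kidney calls add nothing to the array values given above. Without the filter Prm1 in kidney stood at 1.61 ± 0.70 (limma adjusted p = 0.0644) and was not called. Acr was tested throughout, and its difference crossed 1. In liver it was 1.01 without 129 against 0.82, and in retina 0.90 with quantile normalization against 1.06. Quantile normalization raised the median of the testes arrays by 0.12 on the log2 scale and moved the strain deviations most: the median over the 5 probe sets went from 0.24 to -0.05 in 129, from -0.45 to -0.16 in B6, from -0.17 to 0.07 in C3H and from 0.39 to 0.18 in DBA. Values near the floor carry no order, and 1 array per strain leaves strains untested. One alternative, leaving out the 8 body arrays with Prm1 signal, was chosen after seeing the data.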
